A study of Mus musculus with 8 samples.

Results

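Cytotoxic T lymphocytes and natural killer cells kill target cells with granzymes, serine proteases that are stored in granules with perforin, and T cells recognise antigen through a receptor whose signal is carried by the CD3 chains. The 6 genes described here are Gzmb and Gzma, the granzymes B and A, Cd3e and Cd3g, the epsilon and gamma chains of CD3, Cd8a, the alpha chain of the CD8 co-receptor of cytotoxic T cells, and Dusp2, also called PAC1, a nuclear dual-specificity phosphatase that is induced when lymphocytes are activated and dephosphorylates MAP kinases. They were taken by name: every probe set annotated to 1 of the 6 symbols was read, and each gene had 1 probe set, so that the set holds 6 of the 12422 probe sets of the array. The rule itself used no measured value, but the 6 genes were chosen with earlier results of these data known.

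RNA of whole colon was hybridised to 8 Affymetrix MG_U74Av2 arrays, 1 per pool of mice, and the deposited values are intensities on a linear scale. Il10 encodes interleukin 10, a cytokine that restrains T cell and macrophage responses in the gut, and the study set mice that carry a targeted Il10 allele, Il10tm1Cgn (Il10-null in what follows), against wild type in each of 2 strains. The 4 groups were C57BL/6J Il10-null, C57BL/6J wild type, C3H/HeJBir Il10-null and C3H/HeJBir wild type, each with 2 pools numbered sample 1 and sample 2. A pool held 7 µg of RNA from each animal, with 5 animals in the 4 C57BL/6J pools and in 1 more, sample 1 of C3H/HeJBir Il10-null, and 4 animals in the other 3 pools. An age, 4 weeks, is given for the sample 2 C57BL/6J wild-type pool only, and the labels used here state neither the sex of the animals nor any treatment. The animals of a pool cannot be separated, so p-values measure the spread between pools.

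The intestine holds many T cells between its epithelial cells and in the lamina propria, and those of the epithelium are largely CD8-positive and carry granzymes. T cells and killer cells are a minority of the cells of whole colon, and which cells gave the readings of these genes was not tested. Fewer cells of a type and less RNA per cell cannot be told apart in such RNA. A probe set was tested when its mean over the 8 arrays was at least 37.0, the 40th percentile of all probe set means, which kept 7453 of them. Of the 6 genes, Gzmb, Gzma and Dusp2 passed that filter, and Cd3g (mean intensity 35.2), Cd3e (12.4) and Cd8a (8.84) did not. For these last 3, tests come from the same model fitted without the filter. Gzma passed at a mean of 41.1, but its mean without the C3H/HeJBir Il10-null pools, where it read highest, lay under 37.0. Cd3e and Cd8a each read below 11.07, the 20th percentile of all values, on 5 of 8 arrays. Low defining markers were not limited to these genes: of 18 T cell receptor and lineage genes with a probe set on the array, 6 had one that passed the filter, whereas 15 of 17 colon epithelium genes did.

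The pools were not equal in other ways. Across all probe sets 1 array, that of the C3H/HeJBir Il10-null pool of sample 1, had a mean Spearman coefficient of 0.915 with the other 7, where each of those had 0.931 to 0.945, and values without it stand beside the results it moved most. The experiment files gave 3 hybridisation days. Day 1 held both sample 1 Il10-null pools, day 2 both sample 1 wild-type pools and day 3 all sample 2 pools, so that the genotypes shared a day among the sample 2 pools only. Xist, the RNA of the inactive X chromosome, read at least 243 and at most 452 in pools of sample 1, against 2.84 to 12.9 for sample 2. Each group thus held 1 pool with high and 1 with low Xist, and these pools also differed in day. The spread between the pools of a group, on which p-values and intervals rest, includes whatever went with Xist and with day. These cannot be told apart, and the main model had no block for them.

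The sequences before the starts of 3 of the genes are shown because the granzymes had their highest reading in the same pool, and the estimates of Dusp2 by genotype had opposite signs in the strains. Neither trait was particular to the printed genes. Cd3e also read highest in that pool, and the estimates of Cd3e and Cd8a also had opposite signs. Each printed sequence is the 250 bases upstream of the start in RefSeq, mouse build GRCm38.p6, 5′ to 3′ on the strand of the gene. All 6 genes had 1 such entry. Gzmb lies at chr14:56262335-56262584 (minus strand), Gzma at chr13:113100982-113101231 (minus strand) and Dusp2 at chr2:127335909-127336158 (plus strand). Capitals mark matches on either strand to TGTGGT (the Runx core), TGANTCA (AP-1), TGACGT (the CRE core, part of the cyclic AMP response element) or CACGTG (an E-box).
Gzmb: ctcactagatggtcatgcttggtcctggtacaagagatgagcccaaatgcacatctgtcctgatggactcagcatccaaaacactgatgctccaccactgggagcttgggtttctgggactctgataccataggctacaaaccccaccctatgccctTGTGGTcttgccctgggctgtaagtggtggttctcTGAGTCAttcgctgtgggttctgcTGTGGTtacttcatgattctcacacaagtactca
Gzma: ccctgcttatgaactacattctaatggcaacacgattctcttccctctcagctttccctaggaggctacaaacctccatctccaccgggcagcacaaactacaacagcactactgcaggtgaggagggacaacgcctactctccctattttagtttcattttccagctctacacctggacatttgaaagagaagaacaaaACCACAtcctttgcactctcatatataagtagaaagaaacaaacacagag
Dusp2: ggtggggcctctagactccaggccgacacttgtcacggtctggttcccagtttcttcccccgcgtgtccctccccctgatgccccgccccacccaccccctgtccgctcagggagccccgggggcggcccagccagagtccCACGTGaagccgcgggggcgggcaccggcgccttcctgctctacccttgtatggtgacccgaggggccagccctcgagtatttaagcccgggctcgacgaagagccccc
The Gzmb window held the Runx core at 2 places, from 93 to 88 and from 34 to 29 bases before the start, and AP-1 from 58 to 52, with no overlap. The Gzma window held the Runx core once, on the opposite strand, from 50 to 45 bases before the start, and the Dusp2 window held the E-box from 109 to 104. Over all 32841 windows of this length, 14% held the Runx core, 6.75% AP-1, 6.47% the CRE core and 6.02% the E-box. The motifs were chosen after the windows of these genes were read, so the shares cannot be used to weigh the matches. Of the 3 genes not printed, Cd3e held the CRE core, from 53 to 48 bases before the start, and Cd3g and Cd8a held none of the 4. These matches are letters in a window, and the arrays do not bear on which factor binds there.

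Gzmb, the granzyme that cleaves after aspartate and starts apoptosis in the target cell, read 36.1 (sample 2) and 76.6 (sample 1) in C3H/HeJBir Il10-null colon, against 21.0 (sample 2) and 26.1 (sample 1) in C3H/HeJBir wild type. In C57BL/6J it read 36.2 (sample 2) and 57.2 (sample 1) in the Il10-null pools, against 36.2 (sample 1) and 49.9 (sample 2) in wild type. The C3H/HeJBir wild-type pools were thus the 2 lowest of the 8, and the other 3 groups overlapped. Group means ran from 56.4 ± 28.6 in C3H/HeJBir Il10-null over 46.7 ± 14.8 in C57BL/6J Il10-null and 43.1 ± 9.70 in C57BL/6J wild type to 23.5 ± 3.62 in C3H/HeJBir wild type (SD, n = 2 each), and of these neighbours only the last pair did not overlap. The log2 difference by Il10 genotype was 0.90 ± 0.35 (SE) in C3H/HeJBir, or 1.86-fold, with a 95% interval from 0.11 to 1.69, and it did not pass the threshold of 0.05 (limma, adjusted p = 0.999, unadjusted p = 0.0307). The sample 1 pools alone gave 1.24 and the sample 2 pools, which shared a day, gave 0.56. Leaving out the sample 1 Il10-null pool brought it to 0.45 (limma, unadjusted p = 0.220).

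In C57BL/6J the log2 difference of Gzmb was 0.08 ± 0.35, with an interval from -0.71 to 0.87, and its sign differed between the sample 1 pools (0.53) and the sample 2 pools (-0.37). The difference between the 2 Il10 effects, C3H/HeJBir minus C57BL/6J, was 0.82 ± 0.49, with an interval from -0.30 to 1.94 (limma, adjusted p = 1.00). A strain-dependent response of Gzmb was therefore not shown at this number of arrays.

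Gzma, the granzyme with trypsin-like specificity, read 36.6 (sample 2) and 75.8 (sample 1) in C3H/HeJBir Il10-null colon, against 18.8 (sample 2) and 30.7 (sample 1) in C3H/HeJBir wild type. In C57BL/6J it read 46.6 (sample 1) and 54.5 (sample 2) in the Il10-null pools, against 45.8 (sample 1) and 20 (sample 2) in wild type. Within each strain both Il10-null pools lay above both wild-type pools, though in C57BL/6J by less than 1 unit of intensity between the nearest pools. The order of the means was 56.2 ± 27.7 in C3H/HeJBir Il10-null, 50.6 ± 5.54 in C57BL/6J Il10-null, 32.9 ± 18.3 in C57BL/6J wild type and 24.7 ± 8.46 in C3H/HeJBir wild type (SD, n = 2 each), in which only the middle pair of neighbours did not overlap. The probe set of Gzma carries the suffix with which Affymetrix marks probes that may match more than 1 transcript, so the signal of related sequences cannot be told apart.

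The log2 difference of Gzma by Il10 genotype was 0.87 ± 0.39 in C3H/HeJBir, with an interval from -0.02 to 1.76, and 0.55 ± 0.39 in C57BL/6J, with an interval from -0.34 to 1.44. Averaged over the strains it was 0.71 ± 0.27, or 1.63-fold, with an interval from 0.08 to 1.34 (limma, adjusted p = 1.00, unadjusted p = 0.0319). The C3H/HeJBir value was 1.06 between the sample 1 pools and 0.68 between the sample 2 pools, and it was 0.43 when the sample 1 Il10-null pool was left out. The C57BL/6J value came almost wholly from the sample 2 pools, 1.08 against 0.02 between the sample 1 pools, and ran from 0.11 to 0.99 with 1 pool left out. The average over the strains ran from 0.49 to 0.93 with 1 pool left out, and was 0.36 at its lowest over all alternatives. The difference between the strains' Il10 effects was 0.32 ± 0.55 (limma, adjusted p = 1.00).

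Dusp2 read 13.3 (sample 1) and 37.6 (sample 2) in C57BL/6J Il10-null colon, against 93.5 (sample 1) and 120 (sample 2) in C57BL/6J wild type. In C3H/HeJBir it read 70.1 (sample 2) and 162 (sample 1) in the Il10-null pools, against 48.1 (sample 2) and 78.4 (sample 1) in wild type. The C57BL/6J Il10-null pools were the 2 lowest of the 8 arrays, and the C3H/HeJBir genotypes overlapped. By mean the order was C3H/HeJBir Il10-null at 116 ± 65.3, C57BL/6J wild type at 107 ± 18.8, C3H/HeJBir wild type at 63.2 ± 21.4 and C57BL/6J Il10-null at 25.4 ± 17.2 (SD, n = 2 each). The top pair of neighbours overlapped and the others did not.

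By Il10 genotype the log2 difference of Dusp2 was -1.77 ± 0.45 in C57BL/6J, with an interval from -2.80 to -0.73 (limma, adjusted p = 1.00, unadjusted p = 0.00423), and 0.71 ± 0.45 in C3H/HeJBir, with an interval from -0.33 to 1.74 (limma, adjusted p = 0.999). The sample 1 pools gave -2.10 and the sample 2 pools -1.43 in C57BL/6J, and 0.96 and 0.46 in C3H/HeJBir. The difference between these effects was 2.47 ± 0.64, with an interval from 1.01 to 3.94, positive between both sets of same-numbered pools (3.06 in sample 1 and 1.89 in sample 2). It did not pass over all probe sets (limma, adjusted p = 1.00, unadjusted p = 0.00448). Without the sample 1 C3H/HeJBir Il10-null pool it was 1.93 (limma, unadjusted p = 0.0142), and the C3H/HeJBir effect itself was 0.16.

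Cd3g read 19.3 (sample 1) and 38.7 (sample 2) in C3H/HeJBir Il10-null colon, against 44.7 (sample 2) and 48.0 (sample 1) in C3H/HeJBir wild type. In C57BL/6J it read 28.9 (sample 2) and 35.1 (sample 1) in the Il10-null pools, against 26.3 (sample 2) and 40.2 (sample 1) in wild type. The C3H/HeJBir wild-type pools were the 2 highest, and the sample 1 C3H/HeJBir Il10-null pool, where both granzymes and Dusp2 read highest, was the lowest. The means were 46.4 ± 2.32 in C3H/HeJBir wild type, 33.2 ± 9.84 in C57BL/6J wild type, 32.0 ± 4.39 in C57BL/6J Il10-null and 29.0 ± 13.7 in C3H/HeJBir Il10-null (SD, n = 2 each), and all but the first of these neighbours overlapped. The log2 difference by Il10 genotype was -0.56 ± 0.31 in C3H/HeJBir and -0.03 ± 0.31 in C57BL/6J (limma without the filter, adjusted p = 1.00 for each). The C3H/HeJBir value was -0.21 once the sample 1 Il10-null pool was left out.

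Cd3e, whose gene lies on chromosome 9 like that of Cd3g and whose chain pairs with gamma in the receptor, read 10.2 (sample 2) and 23.0 (sample 1) in C3H/HeJBir Il10-null colon, against 8.66 (sample 2) and 14.8 (sample 1) in C3H/HeJBir wild type. In the C57BL/6J pools it read 10.2 and 10.5 in Il10-null, against 10.3 and 11.8 in wild type. Group means were 16.6 ± 9.02 in C3H/HeJBir Il10-null, 11.7 ± 4.35 in C3H/HeJBir wild type, 11.0 ± 1.02 in C57BL/6J wild type and 10.3 ± 0.233 in C57BL/6J Il10-null (SD, n = 2 each). All neighbouring groups overlapped, and 1 pool, again the sample 1 C3H/HeJBir Il10-null pool, held the highest reading. The log2 difference by Il10 genotype was 0.25 ± 0.30 in C3H/HeJBir, -0.09 without that pool, and -0.05 ± 0.30 in C57BL/6J (limma without the filter, adjusted p = 1.00).

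Cd8a read 5.43 (sample 1) and 11.2 (sample 2) in C57BL/6J Il10-null colon, against 11.5 (sample 1) and 23.2 (sample 2) in C57BL/6J wild type. In C3H/HeJBir it read 3.45 (sample 2) and 8.63 (sample 1) in the Il10-null pools, against 2.45 (sample 2) and 4.85 (sample 1) in wild type. The C57BL/6J wild-type pools were the 2 highest, the nearest other pool lying less than 1 unit below them, and the remaining groups overlapped with their neighbours. Means ran from 17.4 ± 8.27 in C57BL/6J wild type over 8.29 ± 4.04 in C57BL/6J Il10-null and 6.04 ± 3.66 in C3H/HeJBir Il10-null to 3.65 ± 1.70 in C3H/HeJBir wild type (SD, n = 2 each). The log2 difference by Il10 genotype was -0.54 ± 0.32 in C57BL/6J and 0.21 ± 0.32 in C3H/HeJBir (limma without the filter, adjusted p = 1.00). At these readings the value added before taking the logarithm, 11.07, is as large as most of the signal. The log2 differences are therefore smaller in size than those of the intensities alone. Whether readings this low lie above background was not tested, so a larger change cannot be read from this.

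**Figure D1:**
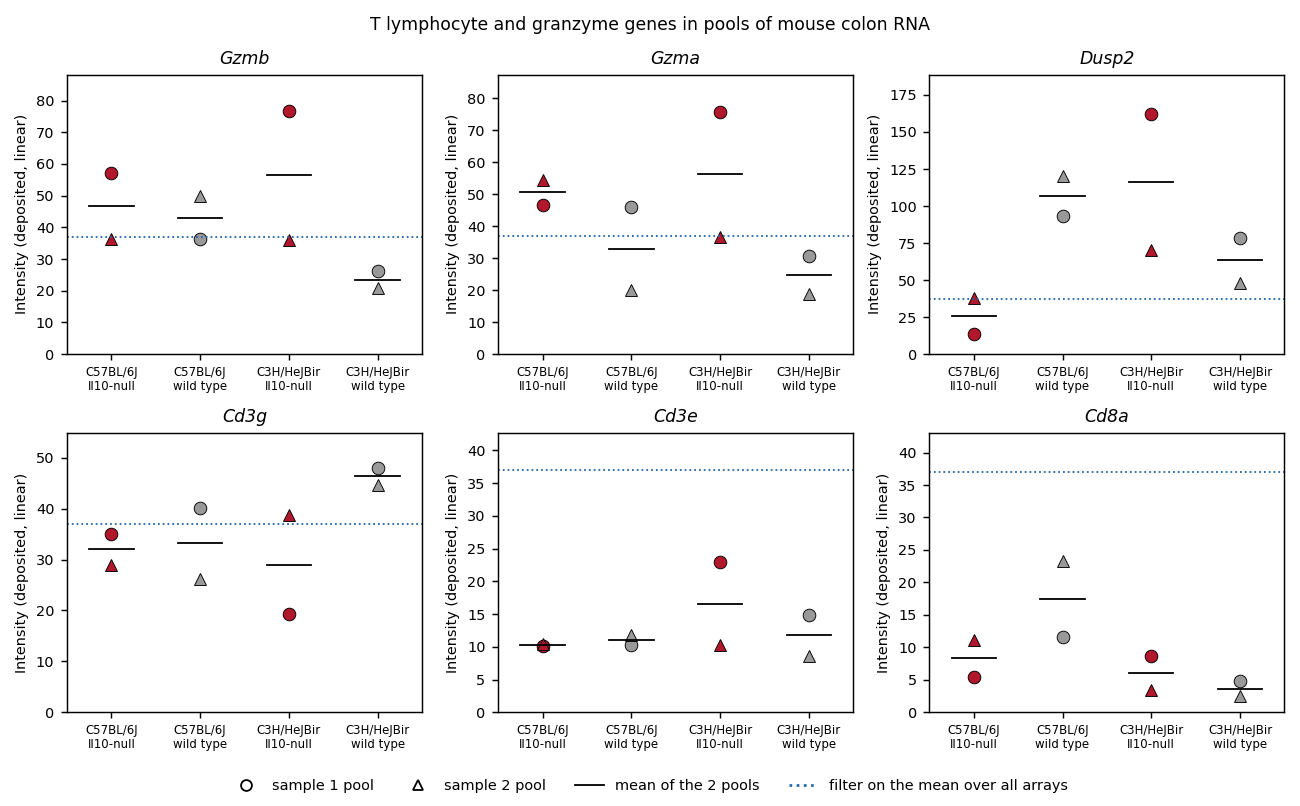
Deposited intensity (linear axis from 0) of the 6 genes in each of the 4 groups, with circles for sample 1 and triangles for sample 2 pools, a bar at the mean of the 2 pools, and a dotted line at the filter of 37.0 on the mean over all arrays. Both granzymes, Cd3e and Dusp2 were highest, and Cd3g lowest, in sample 1 of C3H/HeJBir Il10-null, and Dusp2 was lowest in the C57BL/6J Il10-null pools.

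The comparison by Il10 genotype asked what the loss of this cytokine changed in each strain, and over the 6 genes it gave no call. In C57BL/6J 0 of 6 passed (limma), where 0% of the 7453 tested probe sets did, and 1 of 6, Dusp2, had an unadjusted p under 0.05, as did 1.58% of the tested probe sets and 2.6% without the filter. Groups did not overlap for 3 of the 6 genes, Gzma with higher and Cd8a and Dusp2 with lower readings in Il10-null pools, where 27% of all probe sets did not overlap. The log2 difference was positive for 2 genes, and its median was -0.04, against -0.01 over all probe sets. In C3H/HeJBir 0 of 6 passed, where 0.0134% of the tested probe sets did (7 probe sets when the sample 2 Il10-null pool was left out), and 1, Gzmb, had an unadjusted p under 0.05, as did 2.83% of the tested and 3.29% of all probe sets. Groups did not overlap for 3 genes, Gzmb and Gzma with higher and Cd3g with lower readings, where 24.3% of all probe sets did not. There the difference was positive for 5 of 6 genes, with a median of 0.48, against -0.00195 over all probe sets. With the sample 1 Il10-null pool left out it was positive for 3 of 6, with a median of 0.071.

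For the difference between the strains' Il10 effects 0 of 6 passed (limma, 0% of the tested probe sets), and Dusp2 alone had an unadjusted p under 0.05, as did 1.5% of the tested and 2.58% of all probe sets. For the average Il10 effect 0 of 6 passed (limma, 0% of the tested probe sets, or 11 of them when the sample 2 C3H/HeJBir Il10-null pool was left out), and Gzma alone had an unadjusted p under 0.05, as did 3.09% of the tested and 3.24% of all probe sets. Every adjusted p of these 4 comparisons was at least 0.999 for the 6 genes.

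**Figure D2:**
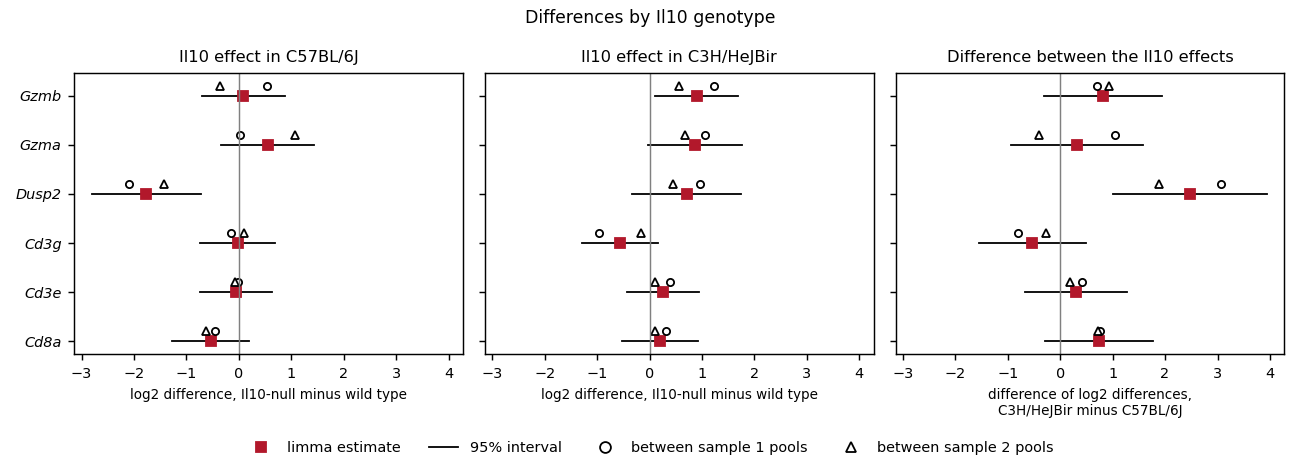
The log2 difference by Il10 genotype in each strain and the difference between the strains' effects (x axes), with a square for the limma estimate, a line for its 95% interval, and open symbols for the value between same-numbered pools. The interval lies apart from 0 for Dusp2 in C57BL/6J and in the difference between the strains, and for Gzmb in C3H/HeJBir, and none of these passed after adjustment.

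The comparison of C3H/HeJBir with C57BL/6J within a genotype asked how the strains differ. Among Il10-null pools Dusp2 read 70.1 and 162 in C3H/HeJBir, against 37.6 and 13.3 in C57BL/6J, a log2 difference of 1.79 ± 0.45, or 3.45-fold, with an interval from 0.75 to 2.82. It had the smallest adjusted p of any of the 6 genes in any comparison and did not pass (limma, adjusted p = 0.309, unadjusted p = 0.00398). Dusp2 was the 1 gene of 6 whose strains did not overlap in Il10-null colon, where 27.1% of all probe sets did not, and 0 of 6 genes passed, where 0.295% of the tested and 0.113% of all probe sets did. At an unadjusted p under 0.05 it was again Dusp2 alone, with 5.17% of the tested and 4.97% of all probe sets. Without the sample 1 C3H/HeJBir Il10-null pool its log2 difference was 1.24 (limma, unadjusted p = 0.0312). The intervals of the other 5 genes in this comparison all held 0, with log2 differences from -0.18 for Cd8a to 0.33 for Cd3e.

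In wild-type colon the strains did not overlap for 4 of the 6 genes, Cd3g with higher and Gzmb, Cd8a and Dusp2 with lower readings in C3H/HeJBir, where 29.9% of all probe sets did not overlap. The log2 differences, C3H/HeJBir minus C57BL/6J, were 0.39 ± 0.31 for Cd3g, -0.64 ± 0.35 for Gzmb, -0.92 ± 0.32 for Cd8a and -0.69 ± 0.45 for Dusp2. The interval of Cd8a, from -1.65 to -0.20, did not hold 0, and it did not pass (limma without the filter, adjusted p = 0.776, unadjusted p = 0.0192). With limma 0 of the 6 passed, where 0.403% of the tested and 0.225% of all probe sets did, and Cd8a alone had an unadjusted p under 0.05, as did 5.68% of the tested and 5.11% of all probe sets. Gzma and Cd3e overlapped between the strains in both genotypes. Whether the probes of these genes bind transcripts of both strains equally was not tested.

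The 6 genes did not share 1 pattern. Over the 8 arrays, which share their groups and hybridisation days, the log2 values of Gzmb and Gzma had a Pearson r of 0.63 (Spearman 0.71), and 0.36 over the 7 arrays without the sample 1 C3H/HeJBir Il10-null pool. Gzmb and Cd3g ran in opposite directions, with r = -0.85, and -0.71 without that pool. The 2 CD3 chains had r = -0.60, and 0.12 without it. Dusp2 had an r of 0.20 with Gzmb and 0.03 with Gzma, and both turned negative without it, at -0.25 and -0.46. Among named probe sets that passed the filter, those most like Gzmb were Atf3 (r = 0.97), C1d (0.93) and Specc1 (0.93), and those most like Gzma were Prkacb (0.99), Clgn (0.95) and Itga7 (0.94). Most like Dusp2 were Cox6b1 (r = 0.98), Mms19 (0.97) and Mapre1 (0.95). Most like Cd3g were Col8a1 (0.98), Ppic (0.97) and Aplp2 (0.96), most like Cd3e were Inpp1, Nsdhl and Slfn2 (0.96, 0.96 and 0.95), and most like Cd8a were Glrx, Tspyl1 and Tmem222 (0.93, 0.92 and 0.91). Each was among the highest of 6727 or 6728 candidates over 8 arrays and is given as a description.

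Other genes of T cells and killer cells gave no call either. Of 24 probe sets for 18 T cell receptor and lineage genes, 0 passed in C57BL/6J or in C3H/HeJBir (limma without the filter), and 0 had an unadjusted p under 0.05 in each. In C3H/HeJBir 6 of the 24 had both Il10-null pools above both wild-type pools and 0 had the reverse. Of all probe sets 12.2% lay in the higher and 12.1% in the lower direction. The 6 higher were 1 probe set of Cd3d, 1 of Cd247, both of Cd6, and those of Cd96 and Rag2. All of them were under the filter, and the means of Cd3d, Cd96, Rag2 and 1 of Cd6 lay under 11.07. The 6 probe sets of the list that passed the filter all overlapped between the C3H/HeJBir genotypes. When the sample 1 Il10-null pool was left out, so that 1 pool was set against 2, 6 of the 24 were higher and 13 lower. Of all probe sets 24.5% and 33.9% lay so. In C57BL/6J there were 2 in each direction, where 12.5% and 14.5% did. Of 32 probe sets for 26 cytotoxic granule and natural killer cell genes, 0 passed in either strain, with 2 higher and 6 lower without overlap in C3H/HeJBir and 3 higher and 4 lower in C57BL/6J. Leaving out the same pool gave 5 higher and 16 lower in C3H/HeJBir. Their median log2 differences were 0.03 in C3H/HeJBir and 0.07 in C57BL/6J.

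Among tested members of these lists the largest differences in C57BL/6J were those of Cd7, a T cell surface glycoprotein, at 42.4 ± 41.0 in C57BL/6J Il10-null against 17.3 ± 0.304 in C57BL/6J wild type (log2 0.66 ± 0.52), and of Srgn, the granule proteoglycan serglycin that holds granzymes, at 44.4 ± 15.8 against 23.4 ± 16.8 (log2 0.75 ± 0.43). Cd7 differed by -0.22 between the sample 1 and by 1.55 between the sample 2 C57BL/6J pools, and its log2 difference in C3H/HeJBir was 0.25, or -0.16 when the sample 1 Il10-null pool was left out. In C3H/HeJBir Srgn had the other sign, at 37.0 ± 14.8 in Il10-null against 55.3 ± 24.2 in wild type (log2 -0.45 ± 0.43, and -0.77 with its sample 1 Il10-null pool left out). Klrk1, the activating receptor NKG2D, had a log2 difference of -0.47 in the C57BL/6J strain, with -0.45 for C3H/HeJBir. Its second probe set, which was under the filter, had the other sign in C57BL/6J, at 0.11, and -0.18 in C3H/HeJBir. All of these missed the threshold (limma, adjusted p of at least 0.999). Perforin, which lets granzymes into the target cell, was chosen for naming after its values were seen: Prf1 read 18.3 and 55.7 in C57BL/6J Il10-null against 24.9 and 27.2 in C57BL/6J wild type, and 38.9 and 42.9 in C3H/HeJBir Il10-null against 35.7 and 40.5 in C3H/HeJBir wild type, with overlap in both strains.

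The signalling genes below the T cell receptor were described in the same way. Of 12 tested, 0 passed in either strain, the difference was positive for 5 in C57BL/6J and for 6 in C3H/HeJBir, and the medians were -0.10 and 0.0037. Among the 10 tested genes of T cell activation, cytokines and their receptors 0 passed, and the largest difference in C57BL/6J was that of Tnfrsf18, the receptor GITR of activated and regulatory T cells, at 52.1 ± 17.4 in C57BL/6J Il10-null against 17.9 ± 3.83 in C57BL/6J wild type (log2 1.10 ± 0.36, limma, adjusted p = 1.00, unadjusted p = 0.0150). In C3H/HeJBir Tnfrsf18 read 18.4 and 48.4 in Il10-null against 45.4 and 49.2 in wild type (log2 -0.48 ± 0.36), or 0.029 when the sample 1 Il10-null pool was left out. The difference between these effects of Tnfrsf18 was -1.58 ± 0.51 (limma, adjusted p = 1.00, unadjusted p = 0.0141), and -1.07 when that pool was left out. Of 5 tested genes of recruitment and gut homing, Cxcl9, a chemokine that draws in T cells through CXCR3, had the largest difference in each strain. It read 66.4 ± 7.52 in C57BL/6J Il10-null against 8.37 ± 5.76 in C57BL/6J wild type (log2 2.02 ± 0.63), and missed the threshold (limma, adjusted p = 1.00). In C3H/HeJBir it read 182 (sample 1) and 26.9 (sample 2) in Il10-null against 26.3 and 24.1 in wild type (log2 1.24 ± 0.63, limma, adjusted p = 0.999). The C3H/HeJBir value of Cxcl9 rested on 1 pool, and was 0.065 when that pool was left out. The other dual-specificity phosphatases and the MAP kinases gave 0 calls of 11 tested, with differences of at most 0.28 in size in C57BL/6J (Dusp6, log2 0.28 ± 0.32) and 0.43 in C3H/HeJBir (Dusp6, log2 0.43 ± 0.32, and 0.16 when the sample 1 Il10-null pool was left out).

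**Figure D3:**
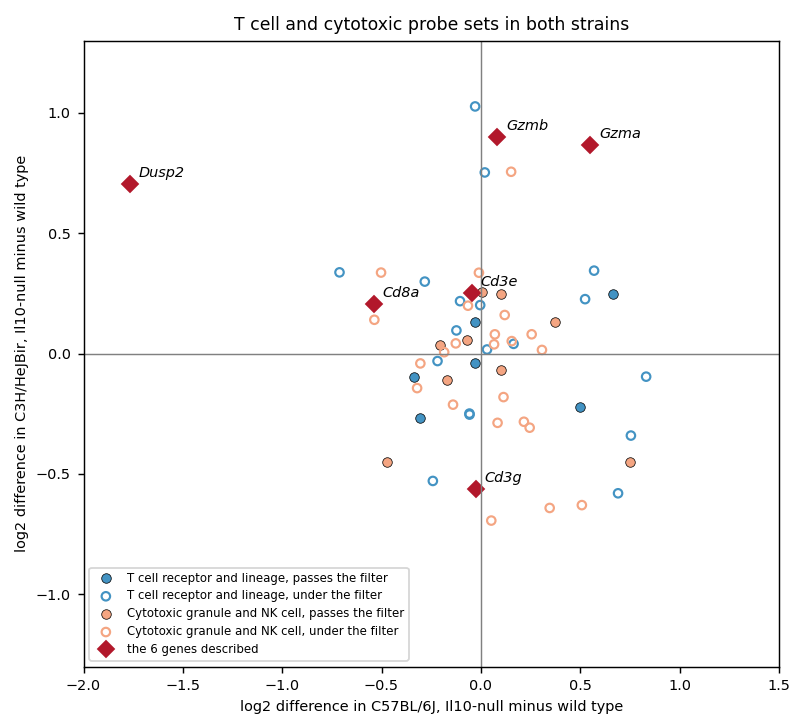
The log2 difference by Il10 genotype in C57BL/6J (x axis) and in C3H/HeJBir (y axis) for the probe sets of the T cell receptor and lineage list and of the cytotoxic granule and natural killer cell list, filled where they passed the filter, with the 6 genes as diamonds. Dusp2, at -1.77 and 0.71, lies farthest to the left, and both granzymes lie in the upper right part.

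Genes of other cell types moved with the pool that set several of these values. In that pool, sample 1 of C3H/HeJBir Il10-null, the level of a list, as the median log2 deviation of its tested genes from their means over the arrays, was 0.54 for 11 B cell and plasma cell genes, 0.60 for 4 neutrophil genes, -0.53 for 10 smooth muscle genes and 1.06 for 9 genes of the exocrine pancreas. The sample 2 pool of that group had -0.39 for B cell, 0.01 for neutrophil, 0.26 for smooth muscle and -0.79 for pancreas genes. A high B cell level was not particular to the sample 1 pool, since the C3H/HeJBir wild-type pools had 0.44 (sample 1) and 0.23 (sample 2). The pancreas level was also high, at 1.18, in the sample 1 C57BL/6J Il10-null pool, and 1 gene of that list, Zg16, is also a product of colon goblet cells. The T cell receptor and lineage list had levels of 0.21 and -0.27 in the sample 1 and sample 2 C3H/HeJBir Il10-null pools. In the same 2 pools the T cell recruitment and gut homing list had 0.47 and -0.25. The macrophage and dendritic cell list had 0.31 and 0.02 there. Summed intensities of the B cell list ran from 3126 to 8545 in C3H/HeJBir Il10-null and from 6424 to 6764 in C3H/HeJBir wild type, and from 2900 to 3506 in C57BL/6J Il10-null and from 2250 to 3584 in C57BL/6J wild type. Those of the neutrophil list ran from 278 to 791 in C3H/HeJBir Il10-null and from 262 to 327 in C3H/HeJBir wild type, and from 264 to 302 in C57BL/6J Il10-null and from 274 to 404 in C57BL/6J wild type. Most of the 791, in the sample 1 pool, was S100a8, which read 581 there against 9.53 in the sample 2 pool. Csf3r of the same list went the other way, at 59.7 in sample 1 against 178 in sample 2. Sums of the macrophage and dendritic cell list ran from 7398 to 8884 in C3H/HeJBir Il10-null and from 6212 to 6974 in C3H/HeJBir wild type. In C57BL/6J they ran from 4533 to 5561 and from 4587 to 5518. Of its 14 tested genes 1, Cd14, passed between the strains, higher in C3H/HeJBir (limma, adjusted p = 0.0112 in Il10-null and 0.00956 in wild type). None passed by Il10 genotype. Mast cells can also hold granzyme B, and their 4 tested genes summed to 219 to 280 in C3H/HeJBir Il10-null against 219 to 243 in C3H/HeJBir wild type, and to 204 to 227 in C57BL/6J Il10-null against 198 to 356 in C57BL/6J wild type. No probe set of these lists read 0 on any array. The part of these cells in the granzyme, Cd3 and Dusp2 readings was not tested.

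**Figure D4:**
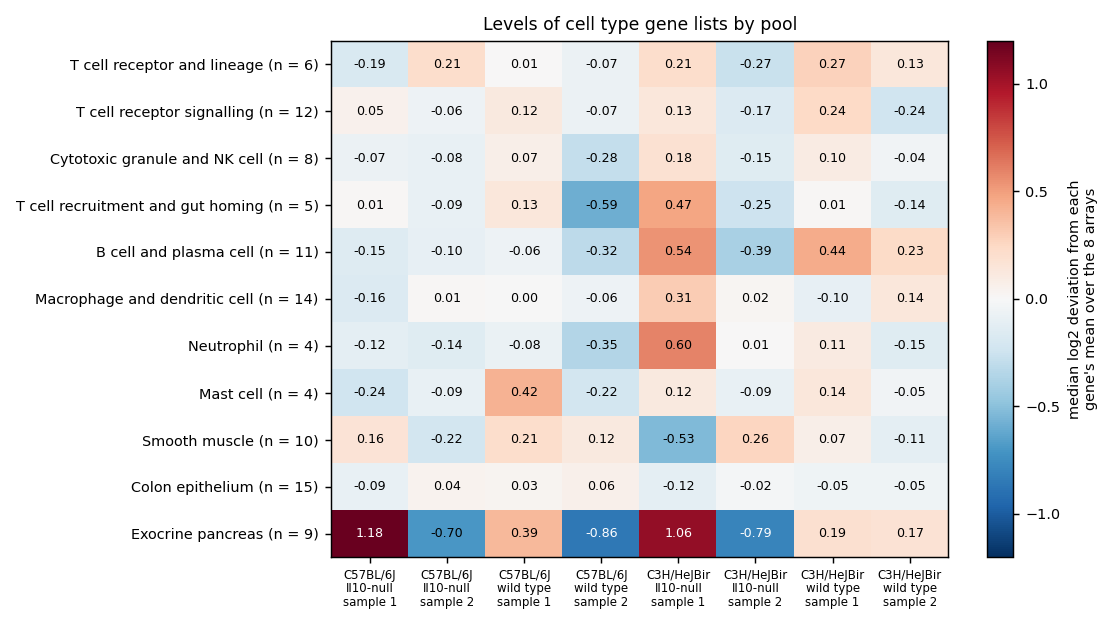
Level of 11 gene lists (rows, with the number of tested genes) in each pool (columns), as the median log2 deviation from each gene's mean over the 8 arrays, from blue (low) to red (high). The sample 1 C3H/HeJBir Il10-null pool is high for B cell, neutrophil and pancreas genes and low for smooth muscle. T cell recruitment and gut homing genes (0.47) and macrophage and dendritic cell genes (0.31) also have their highest level there. The T cell receptor and lineage row stays between -0.27 and 0.27. B cell genes are also high in the C3H/HeJBir wild-type pools, at 0.44 and 0.23.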

How the data were processed

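Total RNA of pooled whole colons was measured on 8 Affymetrix MG_U74Av2 arrays (chip type per the file headers). The deposited intensity values, 1 per probe set from 0.03 to 12860, were made by the authors, and no source used here states their summary method, background correction or scaling. No detection calls were used, and 8 arrays limit the precision. Medians per array ran from 50.1 to 62.2.

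Values were analysed as log2(intensity + 11.07), the 20th percentile of all values. A linear model of 4 group means without a block was fitted to the 7453 of 12422 probe sets above the filter with limma 3.58.1 in R 4.3.3 (4 residual and 4.23 prior degrees of freedom), with two-sided tests and Benjamini-Hochberg adjustment over all tested probe sets, and was tested on simulated data. Genes under the filter were read from the fit to all 12422. Symbols came from the platform annotation, and of 10833 probe sets with 1 symbol, 10817 had a gene number listed in RefSeq's GRCm38.p6 table. For each list, the 2 tested members with the largest difference by Il10 genotype in each strain qualified for naming, and those bearing on the results are named. The 3 neighbours with the highest Pearson r were named per gene. The 6 genes and the lists were chosen with earlier results of these data known. Motifs were chosen after the windows were read.

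Whether sample numbers pair the pools was checked by correlating deviations from group means across probe sets. The 6 pairs of groups gave 0.198 to 0.332, so the number served as a block in an alternative. Other alternatives changed the added value, filter, normalization, moderation, day block and treatment of a gene's several probe sets, or left out each pool.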

Additional observations from a re-analysis of the deposited data

Results flagged for a closer look

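For Dusp2, Cd8a and Cd3e the difference by Il10 genotype was negative in C57BL/6J and positive in C3H/HeJBir. In each strain both sets of same-numbered pools had that strain's sign. How many of all probe sets do the same is not given here, so the pattern is only a description of these genes. For Dusp2 the difference between the strains' effects was 2.47 (limma, adjusted p = 1.00, unadjusted p = 0.00448), with effects of -2.10 and -1.43 in C57BL/6J and 0.96 and 0.46 in C3H/HeJBir. For Cd8a it was 0.75 (limma without the filter, adjusted p = 1.00, unadjusted p = 0.134), with effects of -0.45 and -0.63 in C57BL/6J and 0.31 and 0.10 in C3H/HeJBir. For Cd3e it was 0.30 (limma without the filter, adjusted p = 1.00, unadjusted p = 0.497), with effects of -0.01 and -0.08 in C57BL/6J and 0.40 and 0.11 in C3H/HeJBir. None of the 3 passed the test of the difference, and Cd8a and Cd3e read below 11.07 on 5 of 8 arrays each. Groups of 2 pools are too small for a test of single outlying samples.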

How the results depend on the processing

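Under every alternative run, 0 of the 6 genes passed in each of the 6 comparisons (limma), and the smallest adjusted p was 0.110, for the strain difference of Dusp2 in Il10-null colon, whose log2 value ran from 1.04 to 2.33. Of 630 recomputed log2 differences 606 kept their sign and 24 took the other. The sign of Dusp2 held in all 6 comparisons. So did those of Gzma and Gzmb in the Il10 effect of C3H/HeJBir and the average Il10 effect, and there Cd3g kept a negative sign. Gzma and Cd8a also kept theirs in the Il10 effect of C57BL/6J, and Cd8a in the average Il10 effect. In the difference between the effects and the wild-type strain difference, Gzmb, Cd3g and Cd8a kept theirs. A day block turned the Il10 effect in C57BL/6J to -0.31 for Gzmb and 0.23 for Cd3g. The replicate block changed no call, with 0 genes passing and a smallest adjusted p of 0.359, again for Dusp2 between the strains in Il10-null colon. The other turned signs came from leaving out 1 pool, under which the log2 differences ran as follows. The Il10 effect in C57BL/6J ran from -0.18 to 0.35 for Gzmb, -0.25 to 0.20 for Cd3g and -0.094 to 0.00029 for Cd3e, and in C3H/HeJBir from -0.086 to 0.59 for Cd3e and -0.015 to 0.43 for Cd8a. The average Il10 effect ran from -0.066 to 0.27 for Cd3e and the difference between the strains' effects from -0.12 to 0.75 for Gzma and -0.039 to 0.64 for Cd3e. The strain difference ran in Il10-null colon from -0.27 to 0.63 for Gzmb, -0.37 to 0.50 for Gzma, -0.0064 to 0.67 for Cd3e, -0.50 to 0.21 for Cd3g and -0.40 to 0.041 for Cd8a, and in wild type from -0.69 to 0.18 for Gzma and -0.16 to 0.23 for Cd3e. With a filter at the 60th percentile, 88.0, Gzmb, Gzma and Dusp2 gave no value. Over all probe sets the number passing for strain in Il10-null colon was 22, 45 with the larger added value of 56.7 or with trend and robust moderation, 14 without the filter and 6 with the day block, and in wild type it was 30, 53 with that added value and 51 with trend and robust moderation. For the Il10 effect in C3H/HeJBir it was 1, and 0 to 7 over the alternatives, and for the average Il10 effect 0, but 11 when the sample 2 C3H/HeJBir Il10-null pool was left out, which also gave the 7. Leaving out either C57BL/6J wild-type pool left 2 in wild type, either C3H/HeJBir wild-type pool 8 or 9, and either C57BL/6J Il10-null pool 8 or 4 in Il10-null colon. The low readings of Cd3e and Cd8a limit what these arrays can show of them.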

Other observations

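The B cell marker Cd79a, the alpha chain of the signalling part of the B cell receptor, had the largest difference by Il10 genotype among the tested B cell and plasma cell genes in C3H/HeJBir. It read 24.6 ± 7.13 in C3H/HeJBir Il10-null against 105 ± 11.2 in C3H/HeJBir wild type (SD, n = 2 each, log2 -1.72 ± 0.54, and -1.92 when the sample 1 Il10-null pool was left out), and did not pass (limma, adjusted p = 0.999, unadjusted p = 0.0129). Of the 11 tested genes of that list 2 had a positive difference in C3H/HeJBir, with a median log2 of -0.37, and 7 in C57BL/6J, with a median of 0.07, where 48.5% and 48.9% of all tested probe sets were positive. The median was 0.15 between the sample 1 C3H/HeJBir pools and -0.54 between the sample 2 pools, which shared a day. Mcpt1, a mast cell protease whose probe set may also match related proteases, read 30.3 ± 7.08 in C57BL/6J Il10-null against 80.6 ± 32.1 in C57BL/6J wild type (log2 -1.11 ± 0.48), and 79.6 ± 52.8 in C3H/HeJBir Il10-null against 35.2 ± 20.4 in C3H/HeJBir wild type (log2 0.91 ± 0.48), and it did not pass in either strain (limma, adjusted p = 1.00 in C57BL/6J and 0.999 in C3H/HeJBir). The C3H/HeJBir value of Mcpt1 was 2.01 between the sample 1 pools and -0.19 between the sample 2 pools, and 0.28 when the sample 1 Il10-null pool was left out.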
